A study of Mus musculus with 5 samples.

Results

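The 10 stress-response genes that cells switch on soon after a disturbance were followed through all 5 scRNA-Seq reactions: the AP-1 subunit genes Fos, Fosb, Jun, and Junb, the transcription factor genes Egr1 and Atf3, the gene Ier2, the phosphatase gene Dusp1, and the paired Hsp70 chaperone genes Hspa1a and Hspa1b. They were taken by name from the gene rows of every matrix, and they are 10 of the 32285 genes listed for tumor-draining lymph nodes (TDLNs) and 10 of the 33696 listed for MC38 tumors, with none missing. Each value below is a level in CPM (a count scaled for depth), the unique molecular identifiers (UMIs, each marking 1 captured RNA molecule) of a gene divided by all gene UMIs of the same sum and scaled to the same total in every sum, after the UMIs of all cells of a class in a reaction were added up.

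The mice were male C57BL/6J of 8 to 10 weeks implanted under the skin with TRAMP-C2 cells, a mouse prostate cancer line, or MC38 cells, a mouse colon cancer line. They received isotype control antibody or CPI (anti-CTLA4 plus anti-PD-1, the dual checkpoint blockade) on days 3, 6, and 9, then DPBS vehicle or 20 mg/kg of the JAK1-selective inhibitor ABT-317 on day 12, and tissue was taken on day 15. For MC38 the sources differ on whether days run from implantation or from enrollment of a palpable tumor. Of the 5 reactions, 3 came from TDLNs of TRAMP-C2-bearing mice, whose isotype, CPI, and CPI + ABT-317 cells cannot be separated because every antibody count is 0, and 2 came from MC38 tumors, in which hashtags gave isotype, CPI, isotype + ABT-317, and CPI + ABT-317. Vehicle stands in for ABT-317 in the isotype and CPI groups. The deposited key ties each hashtag to a treatment and names no mouse, and the sources used here do not say whether the reactions of a tissue held different mice, so the p-values measure the spread between reactions, which may be technical.

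Immediate early genes are transcribed from promoters that need no new protein, mostly downstream of MAPK and calcium signaling. Fos and Jun family proteins pair into AP-1, Egr1 is a zinc finger activator, Atf3 is a stress-induced regulator that often represses, Ier2 encodes a small nuclear protein, and Dusp1 removes phosphate from MAPKs and so closes the loop. Hspa1a and Hspa1b are driven by HSF1 when proteins unfold. In single-cell work the same genes are also known to rise while tissue is held warm in enzyme. Here, tumors were minced and digested for 1 h at 37 C, stained, and sorted into live CD45+ and CD45- cells that were mixed 1:1, whereas nodes were pressed apart between slides without a sort.

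The promoters of 6 genes are shown, those of Fos, Fosb, Dusp1, and Atf3, on which the comparison of treatments turns, and of Hspa1a and Hspa1b, on which that of tumor and node turns. Each run is the 250 bases before the RefSeq start site on GRCm38.p6, written 5' to 3' on the strand of the gene, and 8 of the 10 genes, all but Egr1 and Ier2, were searched. Capitals mark a match to TGACGT or its reverse complement ACGTCA, the core of the cAMP response element bound by CREB and ATF proteins, to the full TGACGTCA, which contains it, or to GAANNTTC, the inverted core of the heat shock element.
Fos, chr12:85473640-85473889, plus strand: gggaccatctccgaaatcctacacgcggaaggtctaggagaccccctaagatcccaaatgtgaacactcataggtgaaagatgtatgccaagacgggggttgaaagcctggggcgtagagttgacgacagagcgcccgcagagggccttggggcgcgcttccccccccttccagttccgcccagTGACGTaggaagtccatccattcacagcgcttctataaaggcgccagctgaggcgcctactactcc
Fosb, chr7:19310046-19310295, minus strand: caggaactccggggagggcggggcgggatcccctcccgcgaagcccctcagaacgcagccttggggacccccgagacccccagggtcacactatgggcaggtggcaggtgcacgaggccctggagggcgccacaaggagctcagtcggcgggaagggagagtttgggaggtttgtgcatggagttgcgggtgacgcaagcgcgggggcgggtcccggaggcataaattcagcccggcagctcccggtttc
Dusp1, chr17:26508473-26508722, minus strand: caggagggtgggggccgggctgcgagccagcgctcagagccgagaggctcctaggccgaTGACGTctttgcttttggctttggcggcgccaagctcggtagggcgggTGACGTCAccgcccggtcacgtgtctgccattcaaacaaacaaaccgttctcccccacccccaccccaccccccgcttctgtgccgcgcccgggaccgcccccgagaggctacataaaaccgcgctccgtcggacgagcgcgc
Atf3, chr1:191183334-191183583, minus strand: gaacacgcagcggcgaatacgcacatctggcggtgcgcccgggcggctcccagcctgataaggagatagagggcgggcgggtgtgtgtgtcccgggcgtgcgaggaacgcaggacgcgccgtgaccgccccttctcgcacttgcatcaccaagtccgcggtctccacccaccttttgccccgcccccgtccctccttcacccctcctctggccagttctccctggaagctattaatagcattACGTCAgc
Hspa1a, chr17:34972157-34972406, minus strand: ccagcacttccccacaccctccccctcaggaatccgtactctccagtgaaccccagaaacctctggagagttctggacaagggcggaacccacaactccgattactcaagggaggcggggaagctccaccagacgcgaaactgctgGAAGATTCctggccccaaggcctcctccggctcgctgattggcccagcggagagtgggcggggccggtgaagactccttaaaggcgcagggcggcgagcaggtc
Hspa1b, chr17:34959239-34959488, minus strand: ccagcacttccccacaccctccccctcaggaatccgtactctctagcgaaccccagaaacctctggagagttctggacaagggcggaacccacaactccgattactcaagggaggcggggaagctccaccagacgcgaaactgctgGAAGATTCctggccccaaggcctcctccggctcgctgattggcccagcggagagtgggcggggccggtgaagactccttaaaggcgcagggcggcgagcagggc

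TGACGT was found in 3 of the 8 promoters, those of Fos, Dusp1, and Atf3, and in 6.47% of all 32851 promoters of this length. In Fos it lies 66 to 61 bases before the start, in Atf3 8 to 3 bases before it, and Dusp1 holds TGACGTCA at 143 to 136 bases, a motif of 1.55% of promoters, besides a TGACGT at 191 to 186. GAANNTTC, with 6.69% of promoters, was found in Jun, Hspa1a, and Hspa1b. TGANTCA (the AP-1 site, 6.75% of promoters), TTCNNGAA (7.17%), and the CArG box (1.47%) were found in none of the 8 within these windows, both strands read. The promoters of Egr1 and Ier2 were not searched for any motif. The Hspa1a and Hspa1b windows hold their GAANNTTC at the same place, 104 to 97 bases before the start, and differ at 3 positions, counted from 1 at the 5' end with the Hspa1a base first, C44T, T47C, and T249G. The transcripts of this pair are also alike, and 49.3% of the 90-base windows of Hspa1a and 52.3% of those of Hspa1b occur unchanged in the other, so how their UMIs divide is uncertain. By the GENCODE vM21 annotation of GRCm38, Hspa1a lies on chromosome 17 at 34969190 to 34972156 and Hspa1b at 34956436 to 34959238, with Dusp1 on the same chromosome at 26505590 to 26562128. Junb (chromosome 8, 84974484 to 84978718) and Ier2 (chromosome 8, 84661331 to 84662852) are near each other, Fos is at 85473890 to 85477273 on chromosome 12, Fosb at 19302696 to 19310051 on 7, Jun at 95049034 to 95052222 on 4, Atf3 at 191170296 to 191218039 on 1, and Egr1 at 34859823 to 34864984 on 18.

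Gene UMIs per reaction ran from 18055617 to 127052825 in TDLNs and from 377184807 to 435031691 in MC38 tumors, and the study's filters (200 to under 2500 genes, under 10% mitochondrial counts) kept 92.5 to 99.6% of TDLN barcodes and 35.1 to 40.3% of MC38 barcodes. Pairs of libraries shared 271 to 4842 barcodes, 3.84 to 8.70% of the smaller. Cells were put in classes by marker genes, none of them a member, and called by the markers with "-like". In MC38 reactions 1 and 2 there were 5599 and 5093 C1q macrophage-like, 1108 and 703 fibroblast-like, 511 and 437 T cell-like, 165 and 131 Arg1 myeloid-like, 69 and 49 endothelial-like, 62 and 33 neutrophil-like, and 28 and 24 dendritic cell-like cells, with 7649 and 3169 left unassigned. No kept barcode was placed in a class of MC38 cancer cells, which the paper lists among its major populations. Where these cells fall among the barcodes was not tested, so the classes do not cover the whole tumor. The T cell-like cells also had Igkv4-57-1 and Igha among their 10 leading genes, beside Cd3g, Cd3d, Cd3e, and Trac, and their macrophage and fibroblast marker lists summed to 737 to 998 and 428 to 957 CPM. Most TDLN barcodes carried T and B cell markers together (28561 and 40472 in the larger reactions), which left 230, 723, and 22 T cell-like, 191, 238, and 2 B cell-like, and 44, 67, and 0 neutrophil-like cells. Treatment and class were tied in the tumors: among cells with exactly 1 hashtag, CPI marked 686 and 509 fibroblast-like and 350 and 321 T cell-like cells against 16 and 7 and 17 and 13 with isotype, while isotype marked 3431 and 3480 C1q macrophage-like cells against 114 and 104 with CPI. CPI + ABT-317 marked 0 and 7 T cell-like cells and isotype + ABT-317 marked 0 and 0, although the paper compared tumor T cells between CPI and CPI + ABT-317. These counts depend on the hashtag rule. By the alternative rule, a tag that clearly leads the others, CPI marked 277 and 146 fibroblast-like and 92 and 53 T cell-like cells. By that rule 743 and 515 fibroblast-like and 384 and 362 T cell-like cells had no treatment, and CPI + ABT-317 marked 8 and 16 T cell-like cells. The paper's methods describe equal hashtag representation, yet 5750 and 4318 kept cells were isotype and 442 and 537 were CPI + ABT-317. Sorted CD45+ and CD45- cells had been mixed, and the sources used here do not say whether the deposited hashtag key is complete or which mice a hashtag stands for. Each treatment value below thus holds only as far as that key and the hashtag rule do.

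Fibroblast-like cells of the tumors had the highest Fos, Fosb, Jun, Egr1, and Ier2 levels among the 7 classes in both reactions, and were low in the Hsp70 pair. Fos was at 1829 and 2114 CPM in fibroblast-like cells of reactions 1 and 2, ahead of 1129.9 and 1389 in C1q macrophage-like cells and 308 and 358 in T cell-like cells. Jun was at 1978 and 2100.2 CPM, and the next class, endothelial-like cells, had 1014 and 1043. Ier2 was at 753 and 880.1 CPM against 69.3 to 329.7 in the other classes. The 2 reactions lay close to each other for these genes. These levels pool treatments that are unevenly spread over the classes, and among CPI cells Fosb was at 1042 and 1053 CPM in C1q macrophage-like and 702 and 646 in fibroblast-like cells, and Fos, Fosb, and Egr1 did not pass the test between these classes.

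Against the mean of the other 6 classes, 7 members were higher in fibroblast-like cells and 1 was lower at an adjusted p under 0.05, where 33.5% of the 8806 genes tested were higher and 15.1% lower, 48.6% in all. The log2 fold change of Ier2 was 2.33 (SE 0.14, edgeR adjusted p = 9.13e-19). Egr1 followed at 1.99 (SE 0.14), Jun at 1.98 (SE 0.14), Fos at 1.93 (SE 0.15), and Fosb at 1.90 (SE 0.15), and Atf3 and Dusp1 rose less, by 1.30 and 0.87. Hspa1a, an inducible Hsp70 gene, was lower, with 89.4 and 77.7 CPM and a log2 fold change of -0.87 (SE 0.24, edgeR adjusted p = 0.00226). It passed in 5 of 6 other settings (edgeR or DESeq2 adjusted p up to 0.0648). Hspa1b did not pass here, and did in 2 of 6 other settings. Junb, at 696 and 748 CPM, did not differ from the mean of the other classes beyond the spread (log2 fold change -0.01, SE 0.17). The members' median log2 fold change was 1.60, beside 0.28 for all genes tested.

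**Figure D1:**
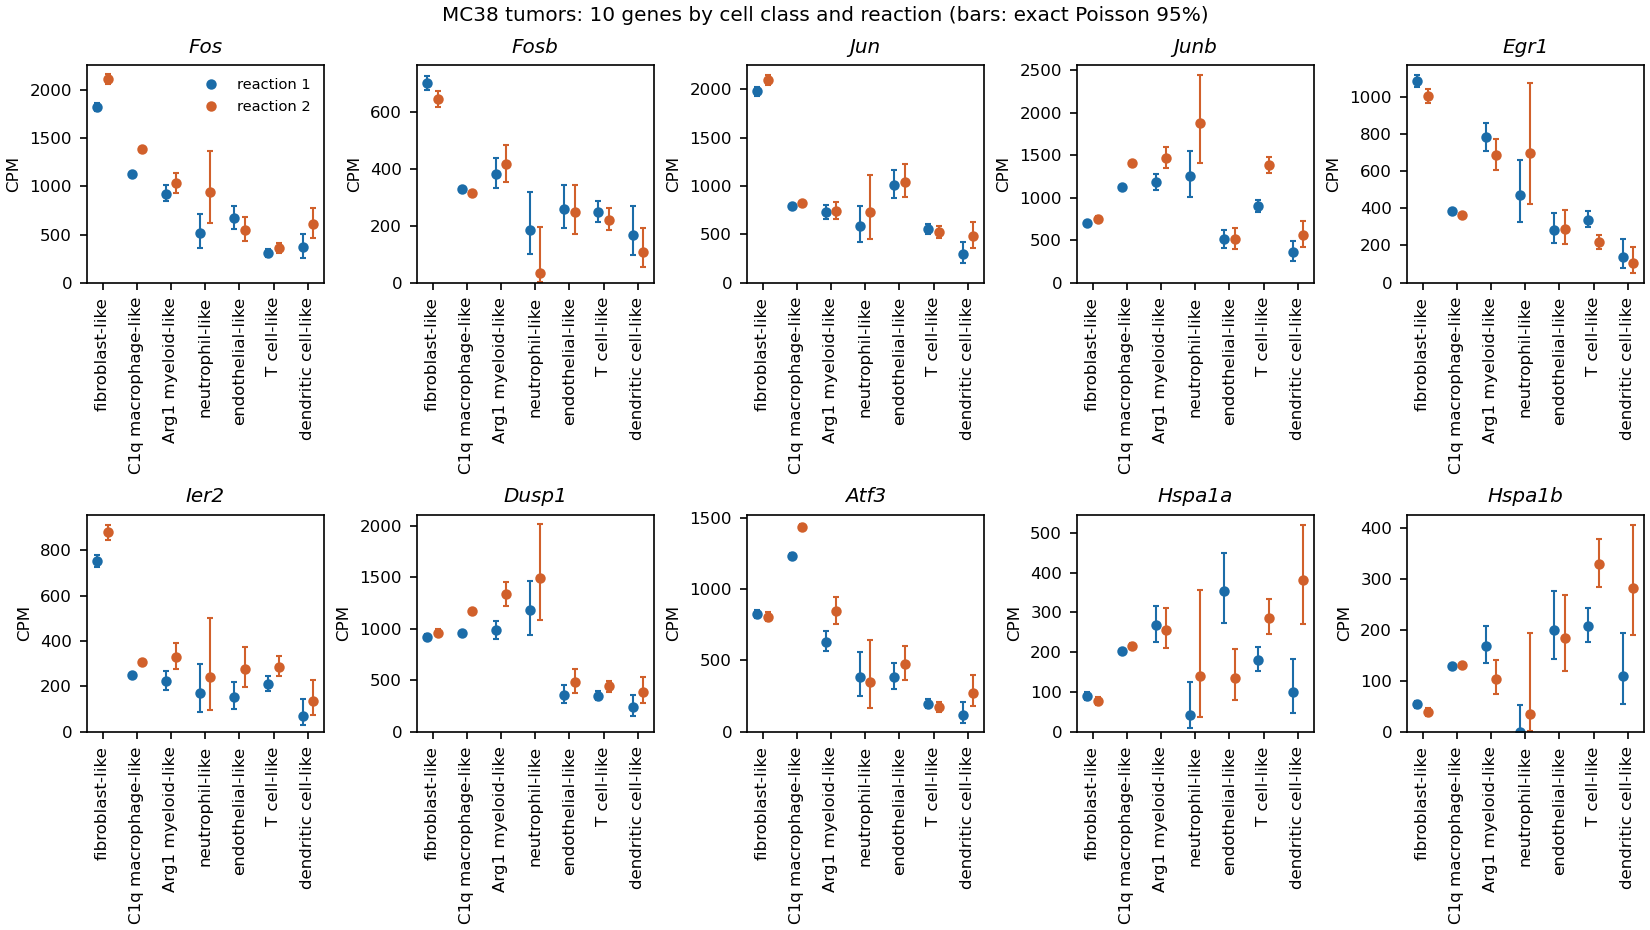
Level of each gene in CPM (vertical axes, each from 0) in the 7 MC38 tumor classes (horizontal axes), with a point for each of the 2 reactions and bars for the exact Poisson 95% interval, which covers counting error only. All treatments are pooled, and nearly all fibroblast-like cells with 1 hashtag are CPI cells and most C1q macrophage-like cells isotype cells. Fibroblast-like cells stand above the other classes for Fos, Fosb, Jun, Egr1, and Ier2, and are low for Hspa1a and Hspa1b.

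C1q macrophage-like cells, called by their complement C1q genes, had the highest Atf3 of the 7 classes tested. With all treatments pooled, their Egr1 and Ier2 lay near the mean of the other classes. Atf3 was at 1233 and 1435 CPM in C1q macrophage-like cells, against 807 to 824 in fibroblast-like, 631 to 846 in Arg1 myeloid-like, and 170.4 to 194 in T cell-like cells. These ranges do not overlap between macrophage-like and fibroblast-like cells. Monocyte-like cells, of which reactions 1 and 2 held 19 and 26, were too few to test and had Atf3 at 1371 and 1289 CPM, within the macrophage-like range. The log2 fold change of Atf3 against the other classes was 1.88 (SE 0.15, edgeR adjusted p = 4.86e-14). Fos (0.93), Dusp1 (0.83), and Junb (0.68) were also higher in C1q macrophage-like cells, 4 of 10 members in all beside 27.4% of genes (20.6% higher, 6.72% lower), and Egr1, at 386 and 361 CPM, had a log2 fold change of 0.02 (SE 0.16). These values depend on the mix of treatments. Among CPI cells only, an alternative chosen after seeing the data, Egr1 was higher by 1.51 (edgeR adjusted p = 1.53e-10). That fit set the class against endothelial-like, fibroblast-like, and T cell-like cells.

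T cell-like cells of the tumors were low in most immediate early genes and high in Hspa1b. Hspa1b was at 208 and 329 CPM, above the 129 and 130.4 of C1q macrophage-like cells and the 53.7 and 38.2 of fibroblast-like cells, just above the 183 to 201 of endothelial-like cells, and its range overlapped the 109 to 283 of dendritic cell-like cells. Its log2 fold change was 1.52 (SE 0.25, edgeR adjusted p = 2.58e-06). Hspa1a, at 181 and 287 CPM, did not pass (0.32, SE 0.23). Atf3 (-1.72), Fos (-1.57), Dusp1 (-1.11), Jun (-0.77), and Egr1 (-0.76) were lower, so that 6 of 10 members passed where 27% of genes did (18.3% higher, 8.74% lower). Junb, an AP-1 subunit that lymphocytes keep at a high level, was at 901 and 1385 CPM with a log2 fold change of 0.23 (SE 0.17).

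The smaller tumor classes also pool treatments, and the treatment mix within them is not given here. Among the smaller tumor classes, Arg1 myeloid-like cells had 7 members higher and none lower, beside 15.1% of genes (13.7% higher, 1.41% lower). Egr1 was at 783 and 687 CPM in these cells and rose by a log2 fold change of 1.24 (SE 0.16, edgeR adjusted p = 3.91e-08), and Hspa1a, at 268 and 257 CPM, rose by 0.90 (SE 0.23). Their Fos passed in 4 of 6 other settings (down to 0.24), and their Atf3 and Junb in 5 of 6 (down to 0.30 and 0.43). Dendritic cell-like cells, led by Ccl22 and Ccr7, had 8 members lower beside 10.4% of genes (7.34% higher, 3.04% lower), with Egr1 at 139 and 107 CPM (-2.005, SE 0.30) and Ier2 at 69.3 and 137 (-1.58, SE 0.32). Over 5 other settings this Egr1 call was made in each, with a smallest difference of -0.83. Ier2, Jun, Fos, and Fosb each passed in 4 of the 5, with smallest differences of -0.50, -0.09, -0.50, and -0.73. Endothelial-like cells were lower in Junb, Dusp1, Egr1, and Fos, 4 of 10 beside 22.3% of genes (15.1% higher, 7.2% lower), and their Junb was at 507 CPM in both reactions (-1.18, SE 0.21). Their Fos passed in 4 of 6 other settings, with a smallest difference of -0.36. The members' median log2 fold change in endothelial-like cells was -0.48, beside 0.14 for all genes. Among CPI cells only, an alternative chosen after seeing the data, it was -1.70, beside -0.15. That fit set endothelial-like cells against C1q macrophage-like, fibroblast-like, and T cell-like cells. Neutrophil-like cells were higher in Dusp1, at 1183 and 1495 CPM (0.86, SE 0.21), and lower in Fosb and Hspa1b, 3 of 10 beside 6.56% of genes (4.68% higher, 1.89% lower). Hspa1b had 0 and 1 UMIs in the neutrophil-like sums, which hold 70156 and 28763 UMIs, and the upper limit of 3 counts for the first sum is 42.8 CPM. Neutrophil-like Dusp1 did not pass without the upper limit on genes (0.53) or under the stricter gate (0.34), Hspa1b did not pass without that limit or by DESeq2, and Arg1 myeloid-like Hspa1a did not pass without that limit (0.48) or by DESeq2 (0.74).

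Because nearly all fibroblast-like and T cell-like cells with 1 hashtag carried that of CPI, both were also set against C1q macrophage-like cells among CPI cells alone, an alternative chosen after seeing the data. Over all treatments, fibroblast-like cells exceeded C1q macrophage-like cells in Ier2 (log2 fold change 1.76), Egr1 (1.69), Jun (1.55), Fosb (1.27), and Fos (0.86), and 9 of 10 members passed beside 62.7% of genes (36.1% higher, 26.6% lower). Among CPI cells, Ier2 (1.67, SE 0.21, edgeR adjusted p = 3.04e-09) and Jun (0.82, SE 0.16) stayed higher. Egr1 (0.24, SE 0.18), Fos (0.28, SE 0.18), and Fosb (-0.41, SE 0.18) no longer passed, and Dusp1 moved from 0.04 to -0.62 (SE 0.17, edgeR adjusted p = 0.00179).

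The macrophage-like levels differed between the settings more than the fibroblast-like ones, which the make-up of the sums favors. CPI cells were 686 of 1108 and 509 of 703 fibroblast-like cells, but 114 of 5599 and 104 of 5093 macrophage-like cells. The fibroblast-like settings thus share most of their cells, and their closeness cannot show whether these levels depend on treatment. Egr1 was at 1085 and 1049 CPM in CPI fibroblast-like cells, near the 1086 and 1005 of all fibroblast-like cells, while CPI macrophage-like cells had 989.95 and 1129 CPM, against 386 and 361 over all treatments. Junb (-1.28), Hspa1a (-1.10), Hspa1b (-1.08), and Atf3 (-0.57) were lower in fibroblast-like cells of the CPI group, and 7 of 10 members passed in all, beside 44% of genes (23.7% higher, 20.3% lower). Each CPI macrophage-like sum rests on 114 or 104 cells.

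T cell-like cells differed from C1q macrophage-like cells in 7 members over all treatments, beside 44.1% of genes (23.4% higher, 20.7% lower), and each of these passed in the same direction among CPI cells. Among CPI cells, Atf3 was at 172 and 98.8 CPM in T cell-like cells and 1465 and 1422 in C1q macrophage-like cells, a log2 fold change of -3.60 (SE 0.23, edgeR adjusted p = 4.65e-17). Fos (-3.06), Dusp1 (-2.39), Fosb (-2.30), Egr1 (-2.05), Jun (-1.64), and Junb (-0.98) were lower as well. Hspa1b was higher by 1.22 (SE 0.31, edgeR adjusted p = 0.00207), with 200 and 321 CPM against 121 and 75.6. In all 8 of 10 members passed, beside 29.3% of genes (13.3% higher, 16% lower).

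**Figure D2:**
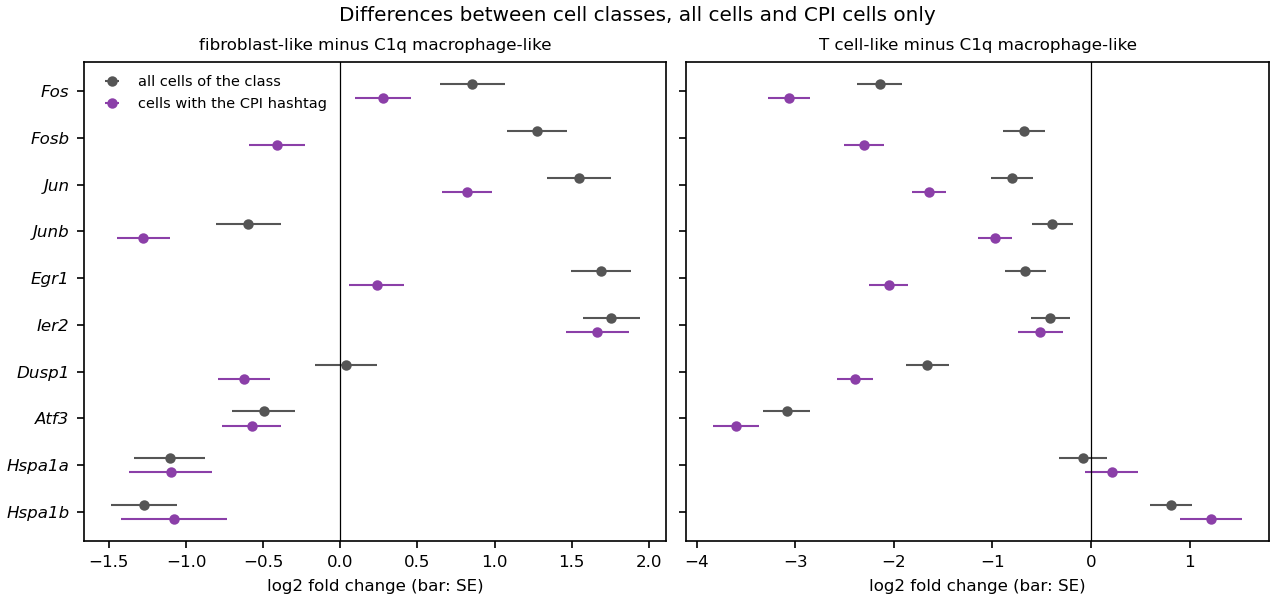
Log2 fold change of each gene (horizontal axes, bars are SE) between fibroblast-like and C1q macrophage-like cells (left) and between T cell-like and C1q macrophage-like cells (right), over all cells of a class and over cells with the CPI hashtag. Among CPI cells the left-hand points for Fos, Fosb, and Egr1 lie near 0 while Ier2 stays at 1.67, and on the right Atf3 and Fos fall to -3.60 and -3.06.

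The lists of related genes were counted in the fits of each class against the other classes, which pool treatments that are unevenly spread over the classes. Of 20 further immediate early genes, 5 were higher and 10 lower in fibroblast-like cells, where 33.5% of all genes were higher and 15.1% lower. Klf4, a zinc finger factor, was at 705 and 696 CPM in fibroblast-like cells against 98.6 and 80.9 in C1q macrophage-like cells (log2 fold change 3.22 against the other classes), while the phosphatase genes Dusp2 (-4.56) and Dusp5 (-3.59) and Egr3 (-2.38) were lower. Of 19 further chaperone genes, 5 were higher and none lower in fibroblast-like cells, a smaller share than among all genes, with the co-chaperone genes Dnajb4 (2.86), Dnajb1 (2.32), and Bag3 (1.59) among them. The small heat shock gene Hspb1 was another, and had 104 and 149 CPM there, 724 and 677 in endothelial-like cells, and 0 UMIs in both neutrophil-like sums. Hspa1a was low in the class in which Dnajb1, another HSF1-driven gene, stood at 275 and 336 CPM against 68.7 and 62.8 in C1q macrophage-like cells. Klf4 and Dnajb1 also differed between treatments within C1q macrophage-like cells, as given below. Against C1q macrophage-like cells, fibroblast-like cells had 5 of the first list higher and 12 lower over all treatments, beside 36.1% and 26.6% of all genes. Among CPI cells these counts were 3 and 15, beside 23.7% and 20.3%. In T cell-like cells Dusp2 (2.83) was the largest difference of the first list, with 6 higher and 7 lower, and Hsph1 (1.21) and Dnajb1 (1.11) were among 5 chaperone genes higher and 1 lower, Bag3 (-1.15), beside 18.3% of all genes higher and 8.74% lower. In C1q macrophage-like cells, where 20.6% of all genes were higher and 6.72% lower, 7 of the first list were higher and 1 lower, with Egr2 at 2.02, Egr3 at -1.73, Zfp36 at 1.28, and Dusp6 at 1.22, and 1 chaperone gene was higher, Ahsa1 (0.64), and 2 lower, Hsph1 (-0.78) and Dnaja1 (-0.46). The counts higher and lower were 11 and 0 of the first list and 3 and 0 of the second in Arg1 myeloid-like cells, beside 13.7% and 1.41% of all genes. They were 2 and 4 and 0 and 1 in dendritic cell-like cells, beside 7.34% and 3.04%. In endothelial-like cells they were 0 and 10 and 2 and 4, beside 15.1% and 7.2%. In neutrophil-like cells they were 9 and 1 and 0 and 1, beside 4.68% and 1.89%.

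Within C1q macrophage-like cells, the only class with at least 20 cells in each of the 8 sums of treatment and reaction, CPI cells had higher Fosb and Egr1 than isotype cells, and cells of both ABT-317 groups had lower Fos, Jun, and Atf3 than the vehicle group with the same antibody. Fosb was at 309 and 305 CPM in isotype, 1042 and 1053 in CPI, 235 and 256 in isotype + ABT-317, and 364 and 299 in CPI + ABT-317. Egr1 was at 368 and 339 CPM in isotype, 989.95 and 1129 in CPI, 246 and 233 in isotype + ABT-317, and 485 and 347 in CPI + ABT-317. For both genes the CPI sums stood apart from the other 6.

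Between CPI and isotype, 6 members were higher and none lower, where 21.1% of 7963 genes passed (10.9% higher, 10.2% lower). Fosb had a log2 fold change of 1.72 (SE 0.10, edgeR adjusted p = 2.96e-15) and Egr1 of 1.54 (SE 0.11, edgeR adjusted p = 4.42e-13). Jun (0.70), Dusp1 (0.62), Junb (0.61), and Fos (0.54) were higher by less. Atf3, with 1337 and 1563 CPM in isotype and 1465 and 1422 in CPI, had -0.05 (SE 0.08). Hspa1a, with 194 and 220.5 against 233 and 151 CPM, had -0.15 (SE 0.18). The members' median was 0.58, beside -0.02 for all genes.

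The CPI macrophage-like cells differed from the isotype cells in more than treatment. They had a median of 1788.5 and 1938.5 UMIs per cell, against 3078 and 3603. Their 7 C1q macrophage markers summed to 10967 and 11557 CPM against 14043 and 17376, and their Arg1 myeloid markers to 2330 and 3209 against 1790 and 1948. The 8 T cell markers summed to 34.6 and 22.2 CPM, from 8 and 5 UMIs, against 4.35 and 2.83, with 5 and 4 of 8 detected and Trac and Cd5 at 0 in both, and the 7 fibroblast markers to 432 and 182 CPM against 322 and 154, with Lum and Pdgfrb at 0 in both. The monocyte markers summed to 169 and 276 CPM against 106 and 86.8, and the plasma cell markers to 30.3 and 48.9 against 5.24 and 3.29. Within this class, cells under 1000 genes had 404 and 479 CPM of Fosb and those with more genes 323 and 303. With cells under 1500 genes only, chosen after seeing the data, the log2 fold changes of Fosb and Egr1 were 1.73 and 1.60, and 8 members passed, with Hspa1a (-0.55) and Hspa1b (-0.98) now lower. With only cells that had no T cell or fibroblast marker UMI they were 1.75 and 1.59. The part of depth, of other cell types, and of myeloid state in these differences was not tested beyond those settings.

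ABT-317 after isotype went with lower levels of 8 members, where 1.14% of genes passed (0.64% higher, 0.502% lower). Dusp1 fell from 974 and 1205 CPM to 591 and 773 (log2 fold change -0.72, SE 0.08, edgeR adjusted p = 3.06e-07), Jun from 802 and 852 to 518 and 563 (-0.66, SE 0.08), and Atf3 from 1337 and 1563 to 847 and 1113 (-0.61, SE 0.07). Each of these genes, the largest falls among the members, was lower with ABT-317 in both reactions. Egr1 (-0.60), Fos (-0.57), Ier2 (-0.41), Fosb (-0.37), and Junb (-0.35) fell by less. Hspa1a, at 291 and 254 CPM against 194 and 220.5, and Hspa1b, at 190.4 and 154 against 127 and 133, had 0.36 (SE 0.10, edgeR adjusted p = 0.106) and 0.37 (SE 0.11, edgeR adjusted p = 0.146), short of the threshold. Without the reaction as a block in the fit, 0 members passed this comparison, though 10 had an unadjusted p under 0.05, and DESeq2 with the block called 7. The count was 4 with cells under 1500 genes only (Atf3, Junb, Fos, Dusp1) and 5 with only cells that had no T cell or fibroblast marker UMI (Atf3, Jun, Fos, Dusp1, Egr1), and Fosb passed in 4 and Ier2 in 5 of 10 other settings. Arg1 myeloid markers summed to 2557 and 2725 CPM in isotype + ABT-317 cells against 1790 and 1948 in isotype cells, and the part of that difference in these values was not tested.

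ABT-317 after CPI went with lower levels of 7 members and higher levels of none, beside 15.1% of genes (7.56% higher, 7.53% lower). Fosb had a log2 fold change of -1.64 (SE 0.11, edgeR adjusted p = 2.54e-13), Egr1 of -1.34 (SE 0.12), Jun of -1.29 (SE 0.10), Fos of -1.17 (SE 0.09), Atf3 of -0.997 (SE 0.09), Dusp1 of -0.79 (SE 0.09), and Junb of -0.72 (SE 0.08). Fos was at 1928 and 1987 CPM in CPI and 798.5 and 915 in CPI + ABT-317, below the 1173 and 1441 of isotype. Ier2 (-0.35, SE 0.16) and the Hsp70 pair (-0.17, SE 0.20, and 0.30, SE 0.25) did not pass. CPI + ABT-317 cells were the deepest, with medians of 3491.5 and 4239 UMIs, and this comparison shares its CPI sums with the one against isotype. Their C1q macrophage markers summed to 13803 and 17470 CPM against 10967 and 11557 in CPI, their T cell markers to 2.44 and 0.846 against 34.6 and 22.2, their fibroblast markers to 350.4 and 137 against 432 and 182, their monocyte markers to 98.9 and 93.1 against 169 and 276, and their plasma cell markers to 10.99 and 11.8 against 30.3 and 48.9, and the part of these shifts was not tested.

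**Figure D3:**
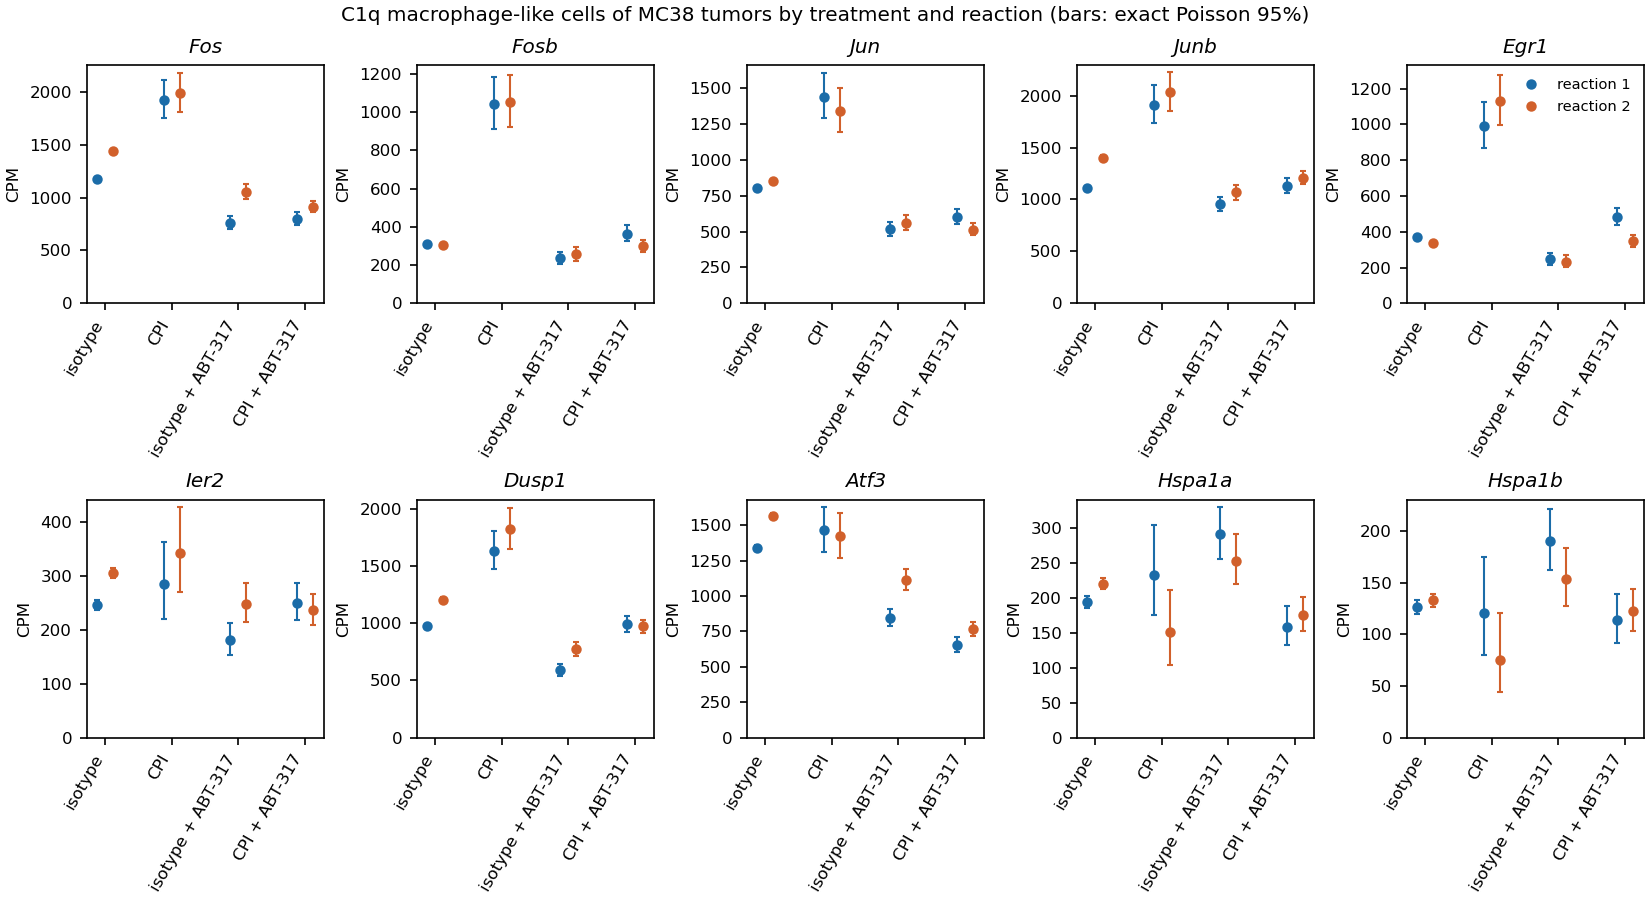
Level of each gene in CPM (vertical axes, each from 0) in C1q macrophage-like cells by treatment (horizontal axes), with a point for each of the 2 MC38 reactions and bars for the exact Poisson 95% interval, which covers counting error only. The CPI points of Fosb, Egr1, Jun, Fos, and Dusp1 stand above the others, and for Atf3 both ABT-317 groups lie below both vehicle groups.

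The fall with ABT-317 was larger after CPI than after isotype for 6 members by the test of that difference, the interaction. No member passed that test in the other direction, where 11% of genes passed it (6.04% above 0, 4.92% below). The interaction was -1.27 on the log2 scale for Fosb (SE 0.15, edgeR adjusted p = 9.23e-08), -0.73 for Egr1, -0.63 for Jun, -0.59 for Fos, -0.38 for Atf3, and -0.37 for Junb. For Dusp1 it was -0.07 (SE 0.12), with falls of 0.72 after isotype and 0.79 after CPI. Between the ABT-317 groups, CPI + ABT-317 cells had higher Egr1 (0.81, SE 0.12), Dusp1 (0.56), Fosb (0.45), and Junb (0.24) and lower Hspa1a (-0.67, SE 0.13), Hspa1b (-0.51), and Atf3 (-0.43), 7 of 10 members beside 5.5% of genes (3.65% higher, 1.85% lower). Of these 7 calls, 4 were made under the alternative hashtag rule (Atf3, Dusp1, Hspa1a, Egr1) and 1 without the block (Egr1). The interaction calls fell to 3 with cells under 1500 genes only, to 3 under the alternative hashtag rule, and to 1 without the block, and Fosb passed in each.

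Related genes moved alongside. Between CPI and isotype, 11 of 20 other immediate early genes were higher and 1 lower, beside 10.9% and 10.2% of all genes. Klf4 went from 84.6 and 68.7 to 449.6 and 565 CPM (log2 fold change 2.68), Egr3 (2.58), Egr2 (2.40), and Maff (1.44) followed. With ABT-317 after CPI, where 7.56% of all genes were higher and 7.53% lower, 12 were lower, led by Klf4 (-2.30), Egr2 (-1.57), and Jund (-1.25), and Dusp2 was higher (1.02). With ABT-317 after isotype, where 0.64% of all genes were higher and 0.502% lower, 3 were lower, Klf4 (-0.77), Jund (-0.60), and Zfp36 (-0.35), which encodes a protein that shortens the life of cytokine mRNAs. Of 19 other chaperone genes, 4 were higher and 2 lower between CPI and isotype, with Dnajb4 (1.48) and Dnajb1 (1.17) among the first and Ahsa1 (-1.03) among the second. Hspb1 had 159 and 620 UMIs in the isotype sums (3431 and 3480 cells) and 0 in both CPI sums (114 and 104 cells). It had 33 and 61 in isotype + ABT-317 (267 and 197 cells) and 1 and 6 in CPI + ABT-317 (222 and 279 cells). These counts are not scaled for depth and cannot be read as levels. Hspb1 passed the filter on low counts only through isotype and isotype + ABT-317 sums, so its comparisons with CPI or CPI + ABT-317 cells are a description. With ABT-317 after isotype, Hspb1 (0.90), Hsph1 (0.83), and Hspa5 (0.31), the endoplasmic reticulum Hsp70, were higher and none were lower. With ABT-317 after CPI, 1 was higher, Ahsa1 (1.02), and 3 were lower, Dnajb1 (-0.89), Hspa5 (-0.69), and Dnaja1 (-0.58). Between the ABT-317 groups, 6 of the first list were higher in the CPI arm and none lower, beside 3.65% and 1.85% of all genes, led by Klf4 (1.16) and Dusp5 (1.04), and 4 chaperone genes were lower, Hsph1 (-0.76), Hspd1 (-0.50), Hspa5 (-0.38), and Hspb1. The place of Hspb1 in that count is a description, for the reason given above. The test of the difference between arms, with 6.04% of all genes above 0 and 4.92% below, passed for 9 of the first list, with Egr2 (-1.57), Klf4 (-1.52), and Gadd45b (-0.98) among 8 below 0 and Dusp2 (1.42) above, and for 3 chaperone genes, Dnajb1 (-1.36), Hspa5 (-1.01), and Dnaja1 (-0.87).

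T cell-like cells were found in both tissues, and those of the tumors had far more of the Hsp70 pair, Atf3, and Fosb than those of the nodes. Hspa1a had 0, 10, and 0 UMIs in the node sums (0, 4.07, and 0 CPM) and 138 and 170 UMIs in the tumor sums (181 and 287 CPM). Hspa1b had 0, 11, and 0 UMIs against 159 and 195. A count of 0 allows up to 3.37 CPM in node reaction 1 and 48.6 CPM in the small reaction 3, so the tumor values lie above the limit of every node sum. Atf3 was at 12.4, 11.4, and 16.2 CPM in nodes and 194 and 170.4 in tumors, and Fosb at 40.4, 24.4, and 16.2 against 247 and 221.

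Of the 10 members, 7 were higher in tumor T cell-like cells and 2 lower, where 32.2% of 8082 genes passed (20.8% higher, 11.4% lower). Of the 7, Hspa1a, Hspa1b, and Atf3 passed the filter on low counts only through the tumor sums, where they are high, so their place in the count and their fitted values are a description. The fitted log2 fold changes of Hspa1b (6.38) and Hspa1a (6.31) lean on the 2 node sums at 0 and ran up to 10.3 and 10.1 over the alternatives, and that of Atf3 was 3.97. Fosb (3.01, SE 0.26), Egr1 (1.98, SE 0.25), Fos (1.08, SE 0.20), and Dusp1 (0.79, SE 0.20) were the other 4. Junb (-0.61) and Ier2 (-0.59) were lower, with Ier2 at 389.6, 377, and 405 CPM in nodes against 209 and 287 in tumors, and Jun, at 332 to 583 against 519.5 to 555, did not pass (0.46, SE 0.20). Ier2 passed in 5 of 10 other settings (edgeR or DESeq2 adjusted p up to 0.309) and Junb in 8 of 10 (up to 0.443). Both were lost without MC38 reaction 1 or without TDLN reaction 2, and Ier2 also without TDLN reaction 1. Dusp1 passed in 9 of 10, and had 0.55 without MC38 reaction 2 (edgeR adjusted p = 0.0988). The C1q macrophage markers summed to 998 and 737 CPM in tumor T cell-like cells (7 of 7 detected) and to 4.49, 4.07, and 0 in those of the nodes, and the fibroblast markers to 957 and 428 against 0, 0.407, and 0, and the part of these in the differences was not tested. The class rules also differed. Node T cell-like cells needed at least 10 T cell marker UMIs, at least 4 of these markers, and no B cell marker UMI. Tumor T cell-like cells needed at least 2 markers and a clearly leading T cell list. Tissue, tumor line, digestion, sort, Cell Ranger version, class rule, and the mix of treatments (nearly all CPI among tumor T cell-like cells with 1 hashtag) differ between these groups and cannot be told apart.

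**Figure D4:**
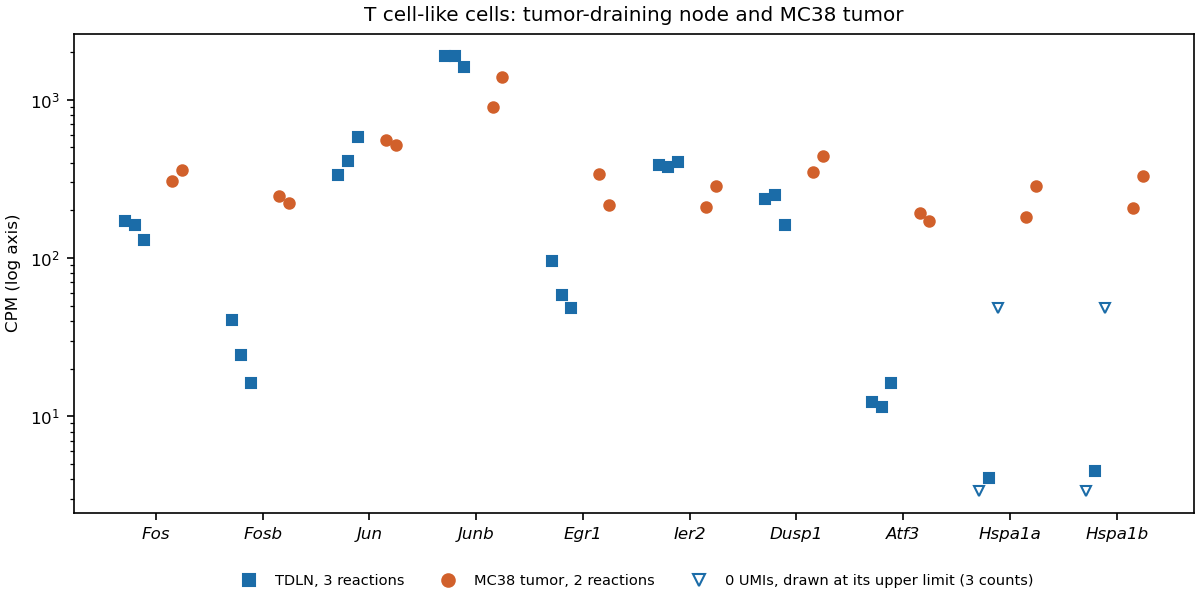
Level of each gene in CPM (vertical axis, log scale) in T cell-like cells of the 3 TDLN reactions (squares) and 2 MC38 tumor reactions (circles). Open triangles mark sums with 0 UMIs, drawn at the upper limit of 3 counts. The tissues are farthest apart for Hspa1a, Hspa1b, Atf3, and Fosb, and Junb and Ier2 are lower in tumors.

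With each cell thinned to 800 UMIs, Hspa1b was seen in 12.7% and 18.5% of tumor T cell-like cells (21.1% and 23.3% before thinning, which left out 29 and 85 cells) and in 0, 0.416, and 0% of node T cell-like cells (0, 1.52, and 0% before). In fibroblast-like cells of the same tumors it was seen in 3.52% and 3.24% (14.5% and 12.5% before). Ier2 went the other way, with 12.9% and 17.6% of tumor and 26.6 to 40.9% of node T cell-like cells. Median depths before thinning were 1218 and 1057 UMIs in tumor T cell-like cells, 2681 to 3695 in those of the nodes, and 3863 and 4508 in fibroblast-like cells.

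The same comparison moved related genes in T cell-like cells: 10 of 20 other immediate early genes were higher in tumors and 2 lower, beside 20.8% and 11.4% of all genes, with Gadd45b (2.12) and Dusp2 (1.55) among the higher. Ier3, at 119 and 152 CPM in tumors against 3.37, 8.55, and 0 in nodes, and Fosl1, at 44.5 and 35.4 CPM against 0, 3, and 0 UMIs, are counted among the 10 but passed the filter on low counts only through the tumor sums. Of 18 other chaperone genes tested, 7 were higher, led by the cytosolic Hsp90 gene Hsp90aa1 (1.87) and the Hsp110 gene Hsph1 (1.69), and 1 was lower, Hsf1 (-0.93), which encodes the factor that drives them, beside the same shares of all genes. In neutrophil-like cells, 7 members could be tested, and 5 were higher in tumors and 1 lower, beside 47.5% of 1650 genes (24.4% higher, 23.2% lower). Dusp1 was at 1183 and 1495 CPM in tumors and 168 and 121 in nodes (3.34, SE 0.53), Atf3 at 385 and 348 against 0 and 42.8 (0 and 6 UMIs, a fitted 3.97 that was 2.90 without TDLN reaction 1 and 7.65 without TDLN reaction 2), Egr1 at 470.4 and 695 against 29.7 and 57.03 (a fitted 3.71), and Ier2 lower (-1.21, SE 0.51, edgeR adjusted p = 0.041), a call made in 3 of 9 other settings. Atf3 and Egr1 passed the filter here only through the tumor sums, and their fitted values are a description. Node neutrophil-like sums also held T and B cell markers, 2020 and 2338 and 1762 and 1183 CPM, and without either of the larger node reactions 3 members passed.

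In the nodes, T cell-like cells had more Junb, Jun, and Dusp1 than B cell-like cells. Junb was at 1884, 1903, and 1603 CPM in T cell-like, 1029 and 936 in B cell-like (reactions 1 and 2), and 1921 and 1654 in neutrophil-like cells, and the barcodes with T and B cell markers together had 1635, 1623, and 1819. Hspa1a and Hspa1b were at 0 to 4.48 CPM in the node classes and at 1.69 to 5.81 CPM in the mixed barcodes, and did not pass the filter on low counts, so 8 of 10 members were tested. Each class was tested against the mean of the other node classes, and T cell-like cells were not tested against B cell-like cells alone. In T cell-like cells 3 were higher, Dusp1 (1.19, SE 0.17), Jun (0.83, SE 0.16), and Junb (0.62, SE 0.09), beside 20.8% of 6689 genes (11.2% higher, 9.61% lower). In B cell-like cells 4 were lower, Jun (-1.07), Dusp1 (-1.03), Junb (-0.94), and Ier2 (-0.50), and Fosb was higher (1.42, SE 0.33), at 82.1 and 72.0 CPM against 40.4 and 24.4 in T cell-like cells of the same reactions, beside 23.4% of genes (12.1% higher, 11.3% lower). The Ier2 call was made in 5 of 7 other settings (edgeR or DESeq2 adjusted p up to 0.136). In neutrophil-like cells edgeR called 0 members, 2 having an unadjusted p under 0.05, and DESeq2 0, beside 2.42% of genes (1.94% higher, 0.478% lower). Of 16 other immediate early genes tested in nodes, 3 were higher and 5 lower in T cell-like cells, with Egr3 at -2.17 and Fosl2 at 1.73, and 7 were higher and 4 lower in B cell-like cells, with Fosl2 at -3.17 and Egr3 at 1.92. Of 17 chaperone genes tested, 3 were higher in T cell-like cells, Hspa8 (0.65), Dnaja1 (0.54), and Hsp90ab1 (0.37), and 4 were lower in B cell-like cells, with Dnaja1 at -1.09.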

How the data were processed

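Gene and antibody UMI counts came as the authors deposited them, whole counts per barcode in filtered 10x matrices. Per the file headers, Cell Ranger 7.1.0 made the TDLN matrices and 8.0.1 the MC38 matrices, while the submitters' processing notes name 3.1.0 and GRCm38. Whether doublets were removed before deposit is not given in the sources used here. The deposited files hold no fold changes or p-values of the authors.

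Barcodes with at least 200 and under 2500 genes and under 10% mitochondrial counts were kept, as in the study. They were put in classes by marker lists that hold no member, with rules that differed between tumors and nodes for every shared class. No doublet caller was run, and barcodes with no clearly leading marker list were left unassigned, and TDLN barcodes with both T and B cell markers were kept apart as mixed. Assigned cells can still carry a few UMIs of another class's markers. MC38 treatment came from barcodes with exactly 1 hashtag. Of the kept barcodes in reactions 1 and 2, 4816 and 1719 carried several hashtags and 1693 and 1433 none. Among C1q macrophage-like cells these were 1506 and 976 with several and 59 and 57 with none. Such barcodes entered no treatment sum under this rule. UMIs were summed per class, reaction, and treatment where at least 20 cells were present, and CPM was given with exact Poisson 95% intervals, which cover counting error only. Counts were tested with the quasi-likelihood test of edgeR 4.0.16 (R 4.3.3, TMM scaling, low-count filter, reaction as a block within a tissue), with Benjamini-Hochberg adjustment over all genes tested. DESeq2 1.42.0 was an alternative, beside other filters, hashtag rules, and left-out reactions. The scripts were tested on simulated data.

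The reaction pairs sums because it is the library they share. Deviations of sums of the same reaction correlated by 0.0899 to 0.479 between treatments (6 pairs) and by 0.000689 to 0.429 between classes (21 pairs). The members and both lists of related genes were chosen with earlier results of these data known. Per comparison, up to 4 genes of each list were named, those with the largest absolute log2 fold change among the genes that passed, and the rest were counted. GENCODE vM21 gave positions, and RefSeq the promoters.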

Additional observations from a re-analysis of the deposited data

Results flagged for a closer look

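In C1q macrophage-like cells, the change with ABT-317 differed between the CPI and isotype arms for 6 members by the test of that difference in edgeR. The difference of log2 fold changes (CPI arm minus isotype arm) was -1.27 for Fosb, and over 10 other settings its adjusted p ran from 2.30e-13 to 0.00314. It was -0.73 for Egr1 (8.14e-05 to 0.0921), -0.63 for Jun (0.000332 to 0.0998), and -0.59 for Fos (6.42e-05 to 0.245). It was -0.38 for Atf3 (0.00804 to 0.749) and -0.37 for Junb (0.00296 to 0.759). Both CPI sums, of 114 and 104 cells, enter each of these values.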

How the results depend on the processing

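Counts of members that passed mostly stayed within 1.5 times those reported under other filters, gates, and tools. Without the replicate block, the 28 treatment calls fell to 13, with 0 for isotype + ABT-317 against isotype (8 with the block), 1 between the ABT-317 groups (7), and 1 for the interaction (6). With hashtags assigned by the leading tag, 4 passed between the ABT-317 groups and 3 for the interaction. With only cells under 1500 genes, 4 passed for isotype + ABT-317 against isotype and 3 for the interaction, and with only cells without a T cell or fibroblast marker UMI 5 passed for the former. Calls among all genes, over the treatment contrasts and the interaction together, moved as well. They were 4284 as reported, 2476 without the block, and 4205 by the leading tag. They were 2293 with only cells under 1500 genes and 2684 with only cells without those marker UMIs. Among CPI cells, the fibroblast-like minus C1q macrophage-like difference turned to -0.62 for Dusp1 and -0.41 for Fosb. Under the stricter gate 9 of the 15 tumor and node calls were made, since only the T cell class could then be tested. Leaving out 1 reaction, those calls ran from 10 to 16, the T cell part from 7 to 10 (9 reported), and the neutrophil part from 3 to 7 (6 reported), 3 without TDLN reaction 1 or without TDLN reaction 2. The summed level of the 10 members in fibroblast-like cells, 9151 CPM, was 8400 without the upper limit on genes, and leaving out 1 reaction gave 8927 to 9374. It gave 6532 to 7556 in C1q macrophage-like cells (7044), 3492 to 4212 in tumor T cell-like cells (3852), and 3063 to 3183 in node T cell-like cells (3110). Leaving out an MC38 reaction left no residual degrees of freedom for classes and treatments, so no test was run there. Fold changes of the called members could still be compared. Without MC38 reaction 1, 31 of 89 values moved by at least their reported SE and 0 reversed, and without reaction 2, 34 of 89 moved and 0 reversed. The 89 values include the comparisons of tumor and node, which kept a test. No paired analysis was possible because a reaction holds 1 tissue, for the comparison of tumor and node. The causes of these changes were not tested. Small sums limit the depth, such as the neutrophil-like sums of the tumors (70156 and 28763 UMIs) and the T cell-like sum of TDLN reaction 3 (61742 UMIs).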

Other observations

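Unassigned tumor barcodes, which enter no comparison, had Fosb at 619 and 607 CPM with the CPI hashtag, 261 and 265 with isotype, 192 and 215 with isotype + ABT-317, and 297 and 183 with CPI + ABT-317. Their Egr1 was at 789 and 771.5 CPM with CPI, 433 and 465 with isotype, 338 and 520.5 with isotype + ABT-317, and 459 and 382 with CPI + ABT-317.

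Among tumor T cell-like cells, those with CD8 markers had Hspa1b at 194 and 317 CPM and those with CD4 markers at 101 and 201 CPM, the latter from 5 and 12 UMIs. In the nodes, Hspa1b had 0 and 5 UMIs in CD8 and 0 and 1 in CD4 cells of reactions 1 and 2.

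Over 14 tumor sums of 7 classes, the 5 genes of 8773 whose log level followed that of Fos most closely were Lrp1 (Pearson r = 0.889), Creb5 (0.859), Atf3 (0.857), Hexa (0.855), and Pmp22 (0.851). For Hspa1a they were Fndc3a (0.840), Tgfb1 (0.837), Ago2 (0.834), Tln1 (0.829), and Ripk2 (0.817), with Hspa1b next at 0.816. The sums share 2 libraries and depth differs between classes, so these values describe likeness only.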
